A study of Mus musculus with 15 samples.

Results

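This is a direct comparison of 2 knockdowns, Ddx24KD against Ddx54KD, in E14 mouse embryonic stem cells, and it uses 6 of the 15 poly(A) RNA-sequencing libraries of the series, 3 from each knockdown. Small interfering RNA against Ddx24 (Ddx24KD), against Ddx54 (Ddx54KD) or against EGFP, a jellyfish reporter gene (EGFPKD, the control), had been delivered to E14 cells with Lipofectamine, and RNA was taken at 48 h. The series also holds Ddx10KD and Ddx27KD, and its title concerns proteins that bind R-loops, hybrids of RNA and DNA, and the processing of ribosomal RNA. The labels give 3 biological replicates, numbered 1 to 3, in each of the 5 groups. They give neither the interfering RNA sequences nor the number of duplexes per gene, so effects of a single reagent cannot be told apart from those of its target. Values are CPM, which are estimated reads per gene scaled to the library's effective size, and 3 values in a row are replicates 1, 2 and 3.

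DDX24 and DDX54 are DEAD-box proteins, enzymes that use ATP to open or remodel RNA duplexes and that are named for 4 amino acids of their ATPase motif. Their budding yeast relatives, Mak5 and Dbp10, act in the nucleolus on precursors of the large ribosomal subunit. When ribosome assembly fails in mammalian cells, ribosomal proteins that are not built into subunits can bind MDM2 and stabilise p53. Embryonic stem cells can pass from a naive state, held by factors such as KLF4 and TFCP2L1, to a formative state marked by OTX2 and POU3F1, the state from which germ layers are specified.

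Both target messages carry the DEAD codons once in their longest reading frame, and 60 bases around that point are shown to set the 2 targets side by side. The capitals mark the 12 bases that encode Asp-Glu-Ala-Asp (GENCODE M21 transcripts, mm10).
Ddx24, chromosome 12: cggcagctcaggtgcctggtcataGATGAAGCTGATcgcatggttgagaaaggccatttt
Ddx54, chromosome 5: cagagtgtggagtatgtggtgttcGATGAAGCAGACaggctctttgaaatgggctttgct
Over these stretches 32 of 60 bases were the same, and 10 of 12 within the capitals. Ddx24 lies on chromosome 12 from 103407982 to 103425830, reverse strand (ENSMUSG00000041645.14). Ddx54 lies on chromosome 5 from 120612739 to 120628592, forward strand (ENSMUSG00000029599.13).

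Each message was low in its own knockdown. Ddx24 had 58.0, 60.8 and 44.6 CPM in Ddx24KD, against 163, 149 and 148 CPM in Ddx54KD and 184, 175 and 172 CPM in EGFPKD. Ddx54 had 188, 189 and 189 CPM in Ddx24KD, against 64.3, 60.2 and 46.2 CPM in Ddx54KD and 202, 204 and 205 CPM in EGFPKD. The groups did not overlap for either gene. The log2 ratio of Ddx24KD to Ddx54KD was -1.50 ± 0.06 (SE) for Ddx24 and 1.73 ± 0.07 for Ddx54, with edgeR adjusted p of 2.16e-11 and 8.86e-12. The target was left at 30.8% ± 4.89 of EGFPKD for Ddx24 in Ddx24KD and at 28.0% ± 4.68 for Ddx54 in Ddx54KD (SD, n = 3 each). Ddx24 was at 86.5% ± 4.62 of EGFPKD in Ddx54KD, and Ddx54 at 92.5% ± 0.186 in Ddx24KD. The helicases targeted elsewhere in the series were not called. Ddx10 had 123, 136 and 128 CPM in Ddx24KD and 133, 125 and 125 CPM in Ddx54KD (adjusted p 0.955). Ddx27 had 185, 199 and 180.4 CPM in Ddx24KD and 177, 178 and 163 CPM in Ddx54KD, groups that did not overlap (adjusted p 0.0956).

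**Figure D1:**
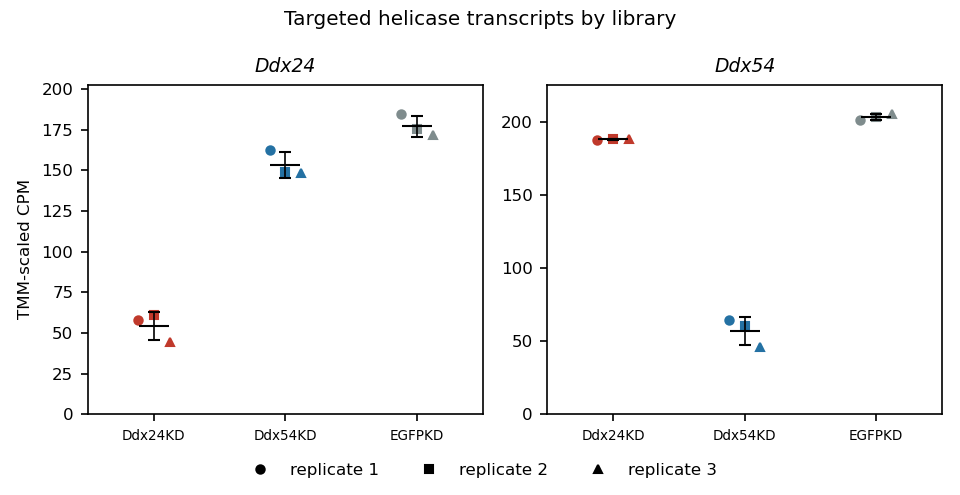
TMM-scaled CPM of Ddx24 and Ddx54 in each library of Ddx24KD, Ddx54KD and EGFPKD (marker shape gives the replicate number, bar and whisker give mean and SD, n = 3). Ddx24 lies at 44.6 to 60.8 CPM only in Ddx24KD, and Ddx54 at 46.2 to 64.3 CPM only in Ddx54KD.

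Apart from their targets, few genes were called between the 2 knockdowns, mostly with small differences, and a gene not called may still differ. Of 14335 genes tested, 250 were called at an adjusted p below 0.05 (1.74%), 135 of them higher in Ddx24KD (0.942%) and 115 lower (0.802%). These shares are the background for the counts of list members called below. Here and below, a gene that rose or fell was called higher or lower in Ddx24KD relative to Ddx54KD unless EGFPKD is named, whichever knockdown lay nearer to the control. The median size of a called difference was 0.29 on the log2 scale, and 11 called genes differed at least 2-fold, among them the targets. Of the 250, 249 moved the same way in all 3 replicate pairs, which a fit with the replicate block favours. The exception was Gfra3, a member of the receptor family for glial-derived growth factors, named here after its values were seen. Groups did not overlap for 160 of the 250, and for 1350 of all genes tested (9.42%). Against EGFPKD, where the 2 comparisons share their control libraries, 5907 genes (41.2%) were called in Ddx24KD and 5570 (38.9%) in Ddx54KD, and 681 and 571 of these differed at least 2-fold.

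The size of the list depended on the replicate number, which enters the fit as a block, and on single libraries. Without the block 8 genes were called, 5 higher and 3 lower: Ddx54, Nrcam, Raver1-fdx1l, Stx3 and Arid1a higher, and Ddx24, Gprc5a and Vim lower. With the block, the count was 137, 616 and 119 without replicate 1, 2 or 3 of Ddx24KD, and 152, 79 and 69 without replicate 1, 2 or 3 of Ddx54KD. It was 63 when the 6 libraries were fitted alone. All 250 genes kept their sign in each of these fits in which they were tested (249 in the fit of 6). Kept signs are likely for genes that were called in the same libraries. Of 53 called genes chosen by rule, 16 stayed called in all 6 fits that leave out 1 library: Ddx24, Ddx54, Pou3f1, Otx2, Pim2, Sall2, Wnt5a, Efnb2, Grb10 and Raver1-fdx1l, and Lgals1, Vim, Trf, Mt2, Inhbb and Gprc5a. The other 37 lost their call in at least 1 of the 6. Without replicate 1, 2 or 3 of Ddx24KD 23, 3 and 21 of the 53 were lost, and without replicate 1, 2 or 3 of Ddx54KD 17, 28 and 36. Replicate 2 of Ddx24KD stood apart from the other 5 libraries on the first principal component, which held 30.5% of the variance, at -24.4 where the others lay between -7.22 and 20.3.

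A group of genes on the formative and early neural list, led by Pou3f1 and Otx2, was higher in Ddx24KD than in Ddx54KD. Of 28 listed genes found in the files 24 were tested; 9 rose and 0 fell, the median log2 ratio was 0.34, and 17 were higher in all 3 pairs. Among all genes tested 0.942% rose and 0.802% fell, the median was 0.00, and 16.2% were higher in all 3 pairs. The summed level of the list was 711 to 872 TPM (a transcript abundance scaled for depth and length) in Ddx24KD, 602 to 714 TPM in Ddx54KD and 634 to 750 TPM in EGFPKD. In bulk RNA, more cells in this state and more RNA per cell cannot be told apart.

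Pou3f1 (chromosome 4, 124656807 to 124660655, forward strand), a POU-domain transcription factor of the late epiblast and neural tissue, had 54.2, 30.4 and 44.1 CPM in Ddx24KD, against 23.6, 16.9 and 22.2 CPM in Ddx54KD and 16.1, 10.9 and 18.2 CPM in EGFPKD. All Ddx24KD values lay above all Ddx54KD values, although replicate 2 was the lowest of each group. The log2 ratio was 1.03 ± 0.08 (SE) with adjusted p 4.81e-07. Otx2 (chromosome 14, 48657677 to 48673819, reverse strand), a homeodomain factor that acts early in the exit from the naive state and later in the forebrain, had 74.5, 54.9 and 76.6 CPM in Ddx24KD, against 45.5, 31.3 and 43.4 CPM in Ddx54KD and 28.4, 20.1 and 25.1 CPM in EGFPKD. Again the groups did not overlap, and the log2 ratio of 0.78 ± 0.06 (adjusted p 5.94e-07) was 0.71, 0.81 and 0.82 in pairs 1, 2 and 3. Both genes were also above EGFPKD in Ddx54KD, with log2 ratios to EGFPKD of 1.51 and 0.48 for Pou3f1 and of 1.48 and 0.70 for Otx2 in Ddx24KD and Ddx54KD. Neither was called when the replicate block was left out.

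Sall2, a Spalt-family zinc-finger factor, had 20.4, 16.7 and 22.9 CPM in Ddx24KD, against 13.4, 12.8 and 16.2 CPM in Ddx54KD and 9.06, 6.46 and 10.5 CPM in EGFPKD (log2 ratio 0.50 ± 0.08, adjusted p 0.0025). Pim2, a serine/threonine kinase, had 89.9, 62.6 and 73.8 CPM in Ddx24KD, against 63.6, 50.4 and 57.0 CPM in Ddx54KD and 52.96, 40.7 and 50.2 CPM in EGFPKD (0.40 ± 0.05, adjusted p 0.000428). Sall2 groups were apart, while the lowest Pim2 value in Ddx24KD lay below the highest in Ddx54KD. Lef1, a nuclear partner of beta-catenin, had 45.9, 35.4 and 38.4 CPM in Ddx24KD, against 29.2, 26.8 and 33.9 CPM in Ddx54KD and 32.2, 27.6 and 36.1 CPM in EGFPKD (0.41 ± 0.10, adjusted p 0.0404). In Ddx54KD the Lef1 log2 ratio to EGFPKD was -0.09, and in Ddx24KD it was 0.32.

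Of the other called members, Fgf15 is described below with the FGF genes, and 3 outside the rule for named genes are given here. Zic2, a zinc-finger factor of the neural plate, had 61.9, 56.3 and 50.6 CPM in Ddx24KD, against 49.4, 40.3 and 40.3 CPM in Ddx54KD and 68.1, 56.6 and 65.1 CPM in EGFPKD (log2 ratio 0.38 ± 0.08, adjusted p 0.0182), so that Ddx54KD held the low values. Id1, an inhibitor of basic helix-loop-helix factors, had 28.1, 21.2 and 26.4 CPM in Ddx24KD and 23.9, 16.3 and 19.9 CPM in Ddx54KD, with 26.2, 20.8 and 25.98 CPM in EGFPKD (0.34 ± 0.08, adjusted p 0.0449). Dnmt3a, a DNA methyltransferase that rises in formative cells, had 207, 151 and 214 CPM in Ddx24KD, against 156, 146 and 150.1 CPM in Ddx54KD and 134, 127.5 and 139.9 CPM in EGFPKD (0.33 ± 0.07, adjusted p 0.0233). For both genes the groups overlapped through replicate 2 of Ddx24KD. Of the 15 members not called, Fgf5 (0.88), Sox3 (0.47) and Sox4 (0.34) had positive log2 ratios and were higher in all 3 pairs, and Tubb3 (-0.12) was lower in all 3 pairs. The neural genes Sox1 and Pax6 went both ways. Sox1 had 0.3, 0.55 and 0.44 TPM in Ddx24KD, against 0.63, 0.67 and 0.23 TPM in Ddx54KD. Pax6 had 3.43, 3.36 and 1.96 TPM, against 3.24, 3.83 and 2.43 TPM. Of the 24 members tested, 21 had positive log2 ratios.

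The count of formative members called higher was 6, 13 and 7 without replicate 1, 2 or 3 of Ddx24KD, and 6, 4 and 4 without replicate 1, 2 or 3 of Ddx54KD. It was 5 in the 6 libraries alone, 2 without replicate 1 of all groups, and 0 without the block, where the median was still 0.34. By library, the median distance of the 24 members from the mean of the 6 libraries was 0.30, 0.04 and 0.13 (log2) in Ddx24KD, -0.01, -0.30 and -0.24 in Ddx54KD and -0.08, -0.25 and -0.11 in EGFPKD. Replicate 1 was the highest and replicate 2 the lowest in all 3 groups, and within each number Ddx24KD lay above Ddx54KD.

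RefSeq promoter windows (GRCm38.p6, 250 bases before to 50 after the start) were on hand for 7 of 13 members, those called higher on the formative list or lower on the naive list, 16 windows in all. They were searched on both strands for ATGCAAAT, the octamer that POU factors bind, and for TAATCC, the core that OTX homeodomains bind, motifs chosen after the values were seen. The octamer was in 1 of the 7 genes, Pim2, and in 1.74% of 32851 windows; TAATCC was in 1 of the 7, Otx2, and in 7.06% of windows. Both windows are shown with the matches, in either orientation, in capitals.
Pim2, chromosome X, 7878056 to 7878355, forward strand: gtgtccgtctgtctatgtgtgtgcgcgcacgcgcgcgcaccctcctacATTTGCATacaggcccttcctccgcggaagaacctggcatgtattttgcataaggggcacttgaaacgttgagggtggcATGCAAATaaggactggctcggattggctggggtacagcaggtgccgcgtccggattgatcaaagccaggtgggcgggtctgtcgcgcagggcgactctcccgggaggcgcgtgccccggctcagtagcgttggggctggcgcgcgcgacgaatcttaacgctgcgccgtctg
Otx2, chromosome 14, 48665060 to 48665359, reverse strand: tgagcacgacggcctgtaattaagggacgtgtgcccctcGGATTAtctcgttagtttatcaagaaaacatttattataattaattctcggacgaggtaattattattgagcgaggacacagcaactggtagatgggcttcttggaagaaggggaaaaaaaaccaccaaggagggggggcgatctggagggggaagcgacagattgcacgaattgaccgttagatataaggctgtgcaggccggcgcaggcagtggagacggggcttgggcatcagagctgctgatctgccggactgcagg
A match describes these letters only; no measure of factor binding was part of these data.

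Some naive genes were lower in Ddx24KD. Of 21 tested, 4 fell (all 4 named below), 1 rose, 6 were lower in all 3 pairs, and the median log2 ratio was -0.02. Among all genes tested 0.802% fell, 0.942% rose and 16.5% were lower in all 3 pairs. Summed over the list, levels were 3030 to 3180 TPM in Ddx24KD, 3140 to 3340 TPM in Ddx54KD and 3440 to 3620 TPM in EGFPKD. Tbx3, a T-box factor that sustains self-renewal, had 91.4, 145 and 100.2 CPM in Ddx24KD, against 118, 178 and 117 CPM in Ddx54KD and 95.3, 155 and 95.3 CPM in EGFPKD (log2 ratio -0.29 ± 0.05, adjusted p 0.00654). Tfcp2l1, a transcription factor downstream of LIF signalling, had 387, 473 and 414 CPM in Ddx24KD, against 463, 508 and 492 CPM in Ddx54KD and 492, 554 and 498 CPM in EGFPKD (-0.20 ± 0.04, adjusted p 0.0121). Values ran together across groups for both genes, and the pairs separated them: replicate 2 was the highest of every group.

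Sox15, a relative of Sox2, had 28.5, 33.9 and 36.4 CPM in Ddx24KD, against 31.9, 44.4 and 44.3 CPM in Ddx54KD and 26.2, 31.2 and 32.5 CPM in EGFPKD (log2 ratio -0.28 ± 0.06, adjusted p 0.0133). Pecam1, an adhesion molecule of naive cells and endothelium, had 115, 111 and 133 CPM in Ddx24KD, against 122, 159 and 161 CPM in Ddx54KD and 96.9, 117 and 109.8 CPM in EGFPKD (-0.29 ± 0.07, adjusted p 0.0262). The log2 ratios of Tbx3, Sox15 and Pecam1 to EGFPKD were -0.03, 0.13 and 0.16 in Ddx24KD, and 0.27, 0.42 and 0.45 in Ddx54KD. Those of Tfcp2l1 were -0.28 in Ddx24KD and -0.08 in Ddx54KD. With 1 library left out, the number of naive members called lower ranged from 0 (without replicate 3 of Ddx54KD) to 5 (without replicate 2 of Ddx24KD), and was 0 without the block.

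The core factors Pou5f1, Nanog and Sox2 were not called. Pou5f1 had 982, 1006 and 988 CPM in Ddx24KD and 964, 1021 and 902 CPM in Ddx54KD (log2 ratio 0.05 ± 0.04, adjusted p 0.64). Nanog had 459, 591 and 486 CPM in Ddx24KD and 557, 573 and 545 CPM in Ddx54KD (-0.13 ± 0.05, adjusted p 0.25), and Sox2 had a log2 ratio of 0.01 ± 0.04 (adjusted p 0.951). Of 16 core members 1 was called higher in Ddx24KD, Jarid2, a partner of the Polycomb repressive complex, with 725, 723 and 734 CPM in Ddx24KD, against 669.5, 644 and 670.1 CPM in Ddx54KD and 809.6, 791 and 837 CPM in EGFPKD (0.14 ± 0.03, adjusted p 0.0179). Jarid2 was thus below the control in both knockdowns and farther below it in Ddx54KD, with log2 ratios to EGFPKD of -0.16 in Ddx24KD and -0.30 in Ddx54KD. The 10 stem cell markers were all tested and summed to 8080 to 8160 TPM in Ddx24KD, 7990 to 8320 TPM in Ddx54KD and 8100 to 8260 TPM in EGFPKD, so the labelled cell type is seen in each library.

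**Figure D2:**
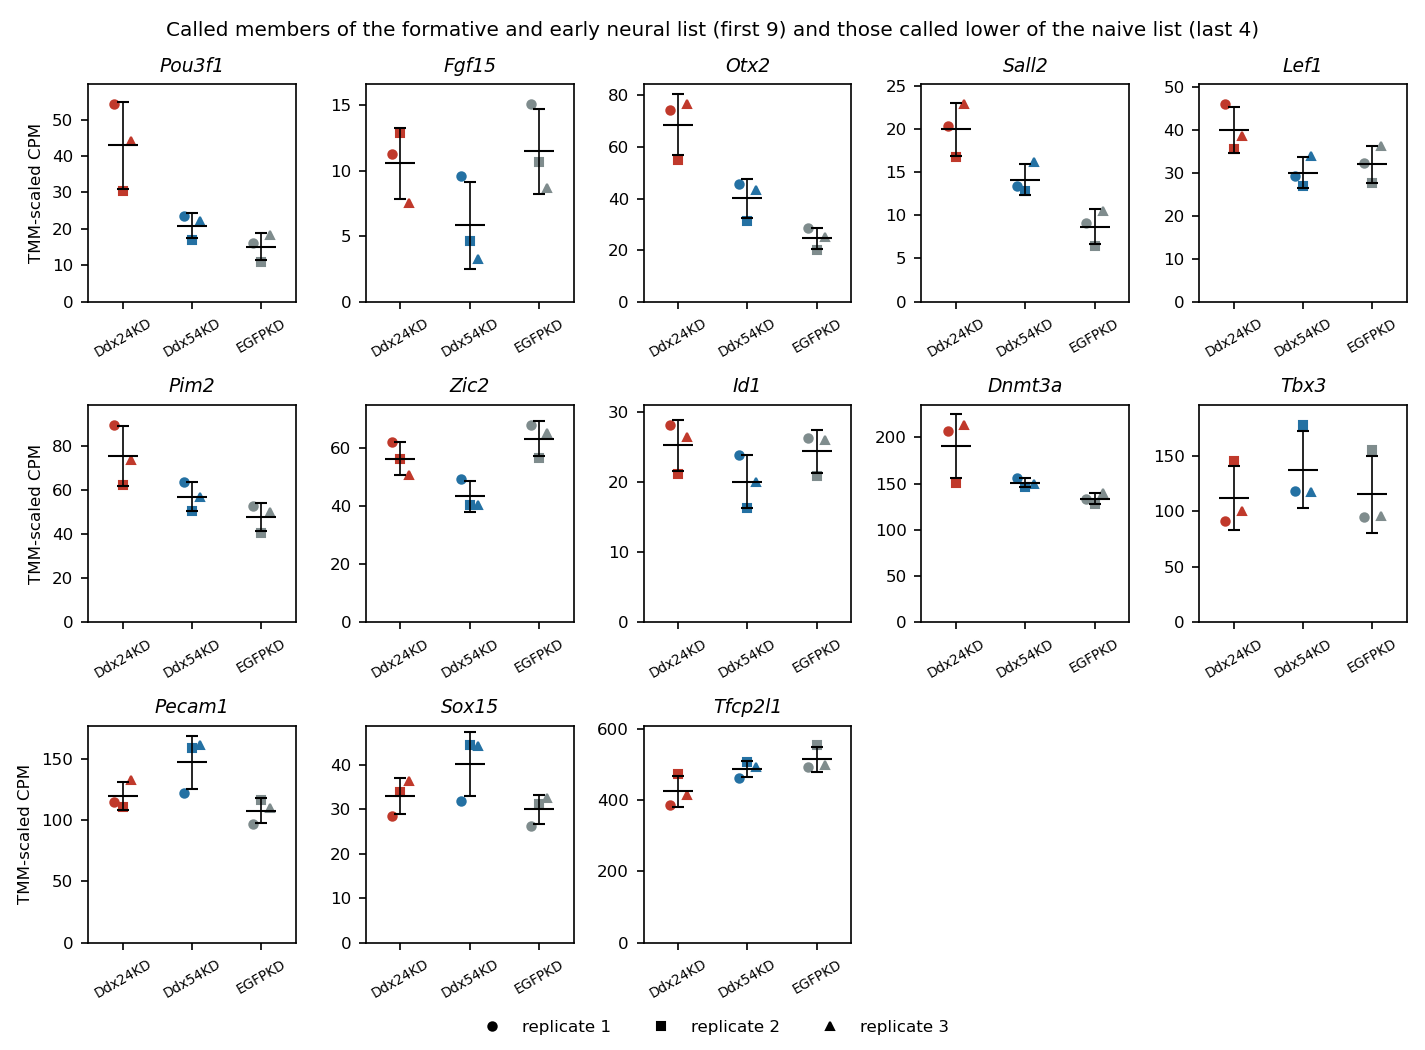
TMM-scaled CPM by library for the 9 called formative and early neural genes and the 4 naive genes called lower in Ddx24KD, Ddx54KD and EGFPKD (marker shape gives the replicate number, bar and whisker give mean and SD, n = 3; each axis starts at 0). Pou3f1 and Otx2 lie highest in Ddx24KD with no overlap, while Tbx3, Pecam1 and Sox15 lie highest on average in Ddx54KD.

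Genes of the 2-cell-like state, a rare state of stem cells that resembles the cleavage embryo, were tested in 37 cases. Of these 2 rose, 0 fell, 20 were higher in all 3 pairs and the median log2 ratio was 0.27. Among all genes tested 0.942% rose and 16.2% were higher in all 3 pairs. The called members are 2 predicted gene models, Gm4340 and Gm20767. Gm4340 had 33.7, 28.3 and 29.99 CPM in Ddx24KD, against 26.4, 23.0 and 15.6 CPM in Ddx54KD and 18.9, 14.3 and 18.2 CPM in EGFPKD (0.51 ± 0.11, adjusted p 0.0179). Gm20767 had 10.7, 10.2 and 10.2 CPM in Ddx24KD, against 8.13, 6.25 and 7.37 CPM in Ddx54KD and 5.08, 4.89 and 6.70 CPM in EGFPKD (0.52 ± 0.12, adjusted p 0.0325). Both were apart between the knockdowns. The 5 measured Zscan4 genes, which mark this state, summed to 83.5, 119 and 86.8 CPM in Ddx24KD, against 83.1, 68.6 and 82.6 CPM in Ddx54KD and 46.7, 43.7 and 59.0 CPM in EGFPKD. That difference lay mainly in pair 2, and none of the 5 was called. The list had 0 called members without replicate 3 of Ddx24KD or of Ddx54KD, and without the block. Many genes of this list belong to families of near-identical copies, between which estimated counts are uncertain.

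In the FGF and ERK list 3 of 22 rose and 0 fell, with a median log2 ratio of 0.10. Among all genes tested 0.942% rose and 0.802% fell. Fgf15, a secreted fibroblast growth factor of the early neural plate that is also a member of the formative and early neural list, had 11.3, 12.9 and 7.57 CPM in Ddx24KD, against 9.60, 4.66 and 3.28 CPM in Ddx54KD and 15.1, 10.7 and 8.72 CPM in EGFPKD (0.91 ± 0.20, adjusted p 0.0212). The groups overlapped, and the ratio was small in pair 1 (0.24) and large in pairs 2 and 3 (1.47 and 1.21). Against the control, Fgf15 fell in Ddx54KD (log2 ratio -1.0, adjusted p 0.000524) and had -0.10 in Ddx24KD (adjusted p 0.695). Spry4, a feedback inhibitor of the pathway, had 148, 106 and 138 CPM in Ddx24KD, against 135, 88.3 and 115 CPM in Ddx54KD and 183, 121 and 149 CPM in EGFPKD (0.22 ± 0.04, adjusted p 0.0169). Etv5, an ETS factor induced by ERK, had 690.1, 654 and 732 CPM in Ddx24KD, against 598, 610.3 and 629 CPM in Ddx54KD and 597, 595 and 635 CPM in EGFPKD (0.18 ± 0.03, adjusted p 0.00584). Etv5 groups did not overlap; those of Spry4 did.

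Among Wnt genes, 2 of 20 rose and 0 fell, where 0.942% of all genes tested rose and 0.802% fell. Wnt5a, a ligand that acts largely without beta-catenin, had 10.4, 6.42 and 12.3 CPM in Ddx24KD, against 5.05, 4.48 and 6.02 CPM in Ddx54KD and 1.21, 0.896 and 1.51 CPM in EGFPKD (log2 ratio 0.89 ± 0.13, adjusted p 0.000964). All 3 groups were apart, in the order Ddx24KD, Ddx54KD, EGFPKD; the other called Wnt gene is Lef1. In the Nodal and activin list 1 of 17 rose and 1 fell, beside the same shares of all genes tested. Skil, a repressor of SMAD signalling, had 321, 224 and 289 CPM in Ddx24KD, against 255, 198 and 238 CPM in Ddx54KD and 249, 194 and 211 CPM in EGFPKD (0.27 ± 0.05, adjusted p 0.0092). Inhbb, a subunit of activin B and inhibin B, had 18.8, 22.7 and 14.1 CPM in Ddx24KD, against 27.9, 27.7 and 19.9 CPM in Ddx54KD and 49.0, 58.0 and 45.2 CPM in EGFPKD (-0.45 ± 0.08, adjusted p 0.00686). Inhbb thus fell further below the control in Ddx24KD, and the knockdowns overlapped in range.

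Cytoskeletal and matrix genes gave 4 that fell and 0 that rose of 30 tested, with a median log2 ratio of -0.11. In all 3 pairs 10 were lower. Among all genes tested 0.802% fell and 16.5% were lower in all 3 pairs. Vim, the intermediate filament vimentin, had 177, 172 and 191 CPM in Ddx24KD, against 223, 249 and 231 CPM in Ddx54KD and 253, 274 and 274 CPM in EGFPKD (-0.38 ± 0.05, adjusted p 0.000428). Lgals1, galectin-1, a lectin that binds matrix and cell-surface sugars, had 55.2, 61.0 and 57.5 CPM in Ddx24KD, against 69.4, 84.2 and 85.8 CPM in Ddx54KD and 74.2, 80.8 and 83.1 CPM in EGFPKD (-0.46 ± 0.06, adjusted p 0.000274). Neither gene overlapped between the knockdowns. Vim was called without the block too, while Lgals1 was not. The list had 2 members called lower without replicate 1 of Ddx24KD or without replicate 1 or 3 of Ddx54KD.

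Itga5, the alpha chain of a fibronectin receptor, had 38.6, 45.7 and 31.7 CPM in Ddx24KD, against 49.6, 50.9 and 43.0 CPM in Ddx54KD and 66.5, 75.7 and 63.1 CPM in EGFPKD (log2 ratio -0.32 ± 0.07, adjusted p 0.0179). Vim and Itga5 were low in both knockdowns and lower in Ddx24KD. Sparc, a matrix glycoprotein that endoderm secretes in quantity, had 213, 176 and 195 CPM in Ddx24KD, against 254, 247 and 229 CPM in Ddx54KD and 222, 221 and 237 CPM in EGFPKD (-0.32 ± 0.07, adjusted p 0.0177), and was the 1 gene of 21 on the endoderm list that was called.

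Markers of other cell types were summed beside these genes. The 14 fibroblast markers, of which 5 were tested and 2 were at 0 in all 6 libraries, summed to 17 to 20.4 TPM in Ddx24KD, 19.8 to 21.7 TPM in Ddx54KD and 20.7 to 29.4 TPM in EGFPKD. The endoderm list summed to 383 to 439 TPM in Ddx24KD, 435 to 473 TPM in Ddx54KD and 481 to 497 TPM in EGFPKD, with 2 of 24 at 0 in all 6 libraries. Trophoblast genes summed to 136 to 153 TPM in Ddx24KD, 138 to 188 TPM in Ddx54KD and 106 to 127 TPM in EGFPKD. Most of that sum is Tfap2c, with 76.7, 104 and 104 TPM in Ddx24KD, against 74.5, 109 and 130 TPM in Ddx54KD. Of the 12 trophoblast genes tested 1 had a positive log2 ratio, 4 were lower and 0 higher in all 3 pairs, and the median was -0.26. Among all genes tested 16.5% were lower in all 3 pairs. The median log2 ratio of the 12 trophoblast genes to EGFPKD was 0.20 in Ddx24KD and 0.28 in Ddx54KD, above the control in both. Mesoderm and streak genes summed to 42.8 to 57.1 TPM in Ddx24KD, 47.2 to 52.1 TPM in Ddx54KD and 76.2 to 83.1 TPM in EGFPKD. Of the trophoblast and mesoderm genes 1 of 14 and 2 of 21 were at 0 in all 6 libraries. None of these lists but the endoderm one had a called member, and their part in the differences above was not tested.

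Calls among genes of ribosome assembly, the process both helicases are known for, are given beside the 1.74% called among all genes tested. Of all genes tested 16.2% were higher in all 3 pairs. Among 49 large-subunit assembly genes, 2 rose and 0 fell, with a median log2 ratio of 0.02 and a range from -0.09 to 0.17. Mdn1, the giant ATPase that strips assembly factors from the large-subunit precursor, had 901, 859.8 and 950.3 CPM in Ddx24KD, against 824, 763 and 859 CPM in Ddx54KD and 897, 807 and 901 CPM in EGFPKD (0.15 ± 0.03, adjusted p 0.023). Surf6, a nucleolar assembly protein, had 65.9, 56.3 and 57.8 CPM in Ddx24KD, against 59.4, 49.0 and 52.2 CPM in Ddx54KD and 63.1, 52.7 and 55.9 CPM in EGFPKD (0.17 ± 0.04, adjusted p 0.0435, and 0.0609 with DESeq2). Of 50 small-subunit assembly genes 15 were higher in all 3 pairs and 1 was called higher in Ddx24KD, Wdr46, with 121, 114 and 114 CPM in Ddx24KD, against 113, 101 and 97.0 CPM in Ddx54KD and 117.9, 118.0 and 118.2 CPM in EGFPKD (0.17 ± 0.04, adjusted p 0.0441). Ddx54KD held the low Wdr46 values, and Ddx24KD lay around the control. Mdn1 and Wdr46 values were apart between the groups, and those of Surf6 were not. Of the 6 fits that leave out 1 library, Mdn1 and Surf6 stayed called in 1 each and Wdr46 in 2.

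None of 79 cytosolic ribosomal protein genes was called, and their log2 ratios ran from -0.03 to 0.09 with a median of 0.03. In all 3 pairs 26 were higher, where 16.2% of all genes tested were. There were likewise 0 calls among 49 other DEAD- and DEAH-box helicases, 19 small nucleolar ribonucleoprotein genes, 18 RNA polymerase I genes, 20 hosts of small nucleolar RNAs, 75 mitochondrial ribosomal protein genes and 29 R-loop factors. With 1.74% of all genes tested called, 0 calls in lists of these sizes is near that share. Against EGFPKD, the large-subunit assembly genes had medians of -0.11 in Ddx24KD and -0.11 in Ddx54KD, and the ribosomal protein genes medians of 0.12 and 0.09. Precursor and mature ribosomal RNA lack poly(A) tails and were not measured here.

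Of 42 targets of p53 tested 1 was called, where 1.74% of all genes tested were, and the median log2 ratio was 0.02. The median of the 42 targets against EGFPKD was 1.06 in Ddx24KD and 0.97 in Ddx54KD. Pmaip1, which encodes the pro-apoptotic protein NOXA, had 39.8, 32.2 and 40.8 CPM in Ddx24KD, against 29.1, 30.4 and 27.9 CPM in Ddx54KD and 13.3, 11.8 and 11.9 CPM in EGFPKD (0.37 ± 0.09, adjusted p 0.0432, and 0.0565 with limma-voom). Cdkn1a, the cell-cycle inhibitor p21, had 84.3, 45.5 and 86.3 CPM in Ddx24KD, against 72.0, 73.8 and 79.9 CPM in Ddx54KD and 33.3, 30.4 and 30.3 CPM in EGFPKD (-0.08 ± 0.13, adjusted p 0.842). Mdm2, the ubiquitin ligase that restrains p53, had 382, 262 and 470.1 CPM in Ddx24KD, against 294, 335 and 389 CPM in Ddx54KD and 105, 116 and 116 CPM in EGFPKD (0.12 ± 0.12, adjusted p 0.7). Replicate 2 of Ddx24KD was the lowest of the 6 knockdown libraries for Cdkn1a and for Mdm2, and pairs went both ways. The Pmaip1 call stayed in 1 of the 6 fits that leave out 1 library.

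Stress and cell-cycle lists are given next, again beside the 1.74% called among all genes tested. Of all genes tested 16.2% were higher and 16.5% lower in all 3 pairs. ATF4 targets, which respond to amino acid shortage, gave 2 of 50 that rose. Slc38a2, an amino acid transporter, had 938, 600.3 and 924 CPM in Ddx24KD and 726, 570.1 and 706 CPM in Ddx54KD, with 568, 478 and 553 CPM in EGFPKD (log2 ratio 0.28 ± 0.06, adjusted p 0.0133). Stc2, the secreted glycoprotein stanniocalcin, had 16.5, 14.2 and 17.3 CPM in Ddx24KD and 9.30, 11.3 and 12.8 CPM in Ddx54KD, with 11.8, 15.2 and 12.8 CPM in EGFPKD (0.53 ± 0.11, adjusted p 0.0153). Stc2 groups were apart and Slc38a2 groups were not, and each call stayed in 1 of the 6 fits that leave out 1 library. Hspb1, a small heat-shock protein and the 1 called of 25 chaperone genes, had 450.0, 460.1 and 374 CPM in Ddx24KD and 522, 538 and 458 CPM in Ddx54KD, with 486, 526 and 442 CPM in EGFPKD (-0.24 ± 0.05, adjusted p 0.0189). Oas1a, which makes the activator of RNase L and was the 1 called of 34 interferon genes, had 14.6, 12.2 and 14.4 CPM in Ddx24KD, against 18.9, 18.0 and 16.2 CPM in Ddx54KD and 22.7, 28.2 and 25.5 CPM in EGFPKD (-0.36 ± 0.09, adjusted p 0.0466, and 0.0567 with limma-voom). The Oas1a call stayed in 0 of the 6 fits that leave out 1 library. Of the 34 interferon genes, 12 were lower in all 3 pairs. No gene was called among 39 S-phase genes (median -0.01), 34 genes of G2 and mitosis (median 0.04, 30 of them positive, 17 higher and 0 lower in all 3 pairs), 24 of the unfolded protein response or 32 of sterol and fatty acid synthesis.

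**Figure D3:**
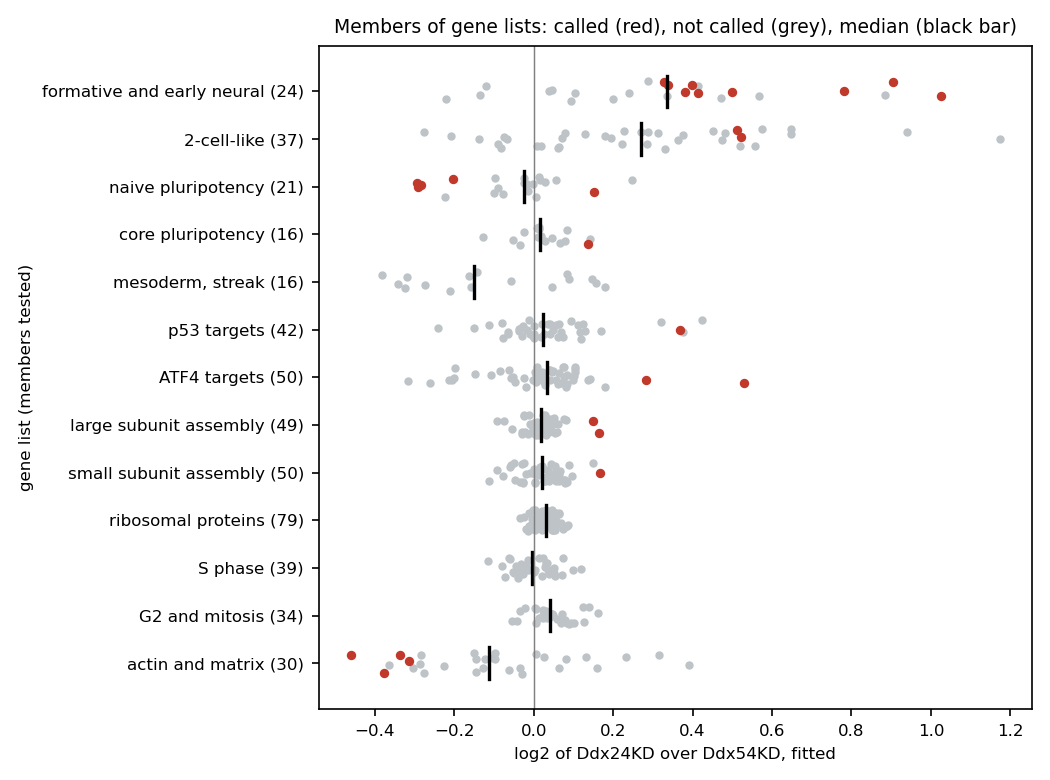
Fitted log2 ratio of Ddx24KD to Ddx54KD for the tested members of 13 gene lists (1 point per gene; red points are called at an adjusted p below 0.05, grey points are not, black bars are list medians, and the number tested is in brackets). The formative and early neural list has its median at 0.34, and the ribosomal protein list lies between -0.03 and 0.09.

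Beyond the lists, the largest called differences were taken from genes with at least 5 TPM in either knockdown. The choice also required the same direction in all 3 pairs. Higher in Ddx24KD was Insm1, a zinc-finger factor of neuroendocrine and neural progenitors, with 11.5, 4.48 and 9.72 CPM in Ddx24KD, against 3.81, 4.01 and 3.87 CPM in Ddx54KD and 1.28, 1.08 and 2.10 CPM in EGFPKD (log2 ratio 1.11 ± 0.26, adjusted p 0.0291). Pairs 1 and 3 carried most of it, at 1.59 and 1.33, while pair 2 had 0.16. The Insm1 call was lost in 11 of 18 alternatives, among them DESeq2 (adjusted p 0.0774) and limma-voom (adjusted p 0.0647). Other described calls were lost in more: Surf6 in 12 of 18, Oas1a in 13 of 18 and Ly6a in 13 of 17. Gadd45g, a growth-arrest gene switched on as neural cells differentiate, had 17.2, 17.8 and 19.3 CPM in Ddx24KD, against 9.16, 14.6 and 9.99 CPM in Ddx54KD and 3.51, 7.06 and 4.08 CPM in EGFPKD (0.71 ± 0.12, adjusted p 0.00471). Raver1-fdx1l, a readthrough model over the genes Raver1 and Fdx1l, had 7.73, 9.74 and 8.91 CPM in Ddx24KD, against 3.92, 4.01 and 4.67 CPM in Ddx54KD and 6.51, 8.55 and 7.36 CPM in EGFPKD (1.06 ± 0.15, adjusted p 0.00072). Its estimated counts share reads with both genes and are uncertain.

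Efnb2, the membrane-bound ligand ephrin-B2, had 16.0, 13.4 and 15.2 CPM in Ddx24KD, against 11.4, 10.1 and 9.04 CPM in Ddx54KD and 11.6, 11.4 and 13.1 CPM in EGFPKD (log2 ratio 0.55 ± 0.09, adjusted p 0.00214). Sall3, another Spalt factor, had 19.7, 19.02 and 16.2 CPM in Ddx24KD, against 16.1, 13.8 and 8.46 CPM in Ddx54KD and 19.3, 19.1 and 17.2 CPM in EGFPKD (0.54 ± 0.12, adjusted p 0.0202). For both genes the groups were apart. Id2, an inhibitor of basic helix-loop-helix factors like Id1, had 13.4, 16.0 and 10.5 CPM in Ddx24KD and 10.6, 8.82 and 8.13 CPM in Ddx54KD, with 10.8, 8.89 and 9.68 CPM in EGFPKD (0.53 ± 0.11, adjusted p 0.0135). Vrtn, known in pigs for its effect on the number of vertebrae, had 11.5, 6.68 and 7.65 CPM in Ddx24KD and 8.57, 4.05 and 4.74 CPM in Ddx54KD, with 7.64, 5.15 and 7.25 CPM in EGFPKD (0.59 ± 0.13, adjusted p 0.0207). These 2 overlapped between the groups but not within pairs.

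A further 3 genes stood out in the fit without the block and are described for that reason, after their values were seen. Nrcam, a neuronal adhesion molecule with under 5 TPM in both knockdowns, had 9.15, 7.05 and 11.5 CPM in Ddx24KD, against 3.99, 4.73 and 4.05 CPM in Ddx54KD and 2.12, 1.27 and 1.58 CPM in EGFPKD (log2 ratio 1.102 ± 0.147, adjusted p 0.000587). Stx3, a syntaxin of membrane fusion, had 83.2, 89.0 and 79.5 CPM in Ddx24KD, against 63.0, 63.2 and 61.7 CPM in Ddx54KD and 55.6, 56.4 and 53.5 CPM in EGFPKD (0.42 ± 0.04, adjusted p 3.2e-05). Arid1a, a subunit of the BAF chromatin remodelling complex, had 729.9, 729 and 746 CPM in Ddx24KD, against 631, 610.0 and 617 CPM in Ddx54KD and 640.0, 621 and 661 CPM in EGFPKD (0.25 ± 0.03, adjusted p 0.000204). The groups did not overlap for any of the 3. Replicates of Stx3 and Arid1a lay close together, while those of Nrcam in Ddx24KD were spread.

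Lower in Ddx24KD was Trf, transferrin, the carrier of iron, with 5.50, 4.81 and 7.61 CPM in Ddx24KD, against 8.68, 8.60 and 10.3 CPM in Ddx54KD and 11.04, 11.7 and 14.2 CPM in EGFPKD (log2 ratio -0.63 ± 0.11, adjusted p 0.00445). Steap3, a reductase that frees iron taken up with transferrin, had 12.05, 12.9 and 11.5 CPM in Ddx24KD, against 15.9, 19.04 and 17.4 CPM in Ddx54KD and 16.5, 21.8 and 17.3 CPM in EGFPKD (-0.52 ± 0.09, adjusted p 0.00584). Neither overlapped between the knockdowns. Mt2, a metallothionein that binds zinc and copper, had 84.3, 126 and 67.9 CPM in Ddx24KD, against 114, 156 and 119.7 CPM in Ddx54KD and 144, 186 and 145 CPM in EGFPKD (-0.51 ± 0.08, adjusted p 0.00244). Replicate 2 was the highest Mt2 library in all 3 groups, and within each number the order was Ddx24KD, Ddx54KD, EGFPKD from low to high.

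Gprc5a, an orphan receptor induced by retinoic acid, had 6.73, 7.54 and 6.46 CPM in Ddx24KD, against 10.2, 10.4 and 9.66 CPM in Ddx54KD and 7.89, 8.55 and 7.62 CPM in EGFPKD (log2 ratio -0.55 ± 0.09, adjusted p 0.00216), so that EGFPKD lay between the knockdowns in each pair. Ly6a, the surface antigen Sca-1, had 2.94, 3.02 and 1.86 CPM in Ddx24KD and 4.10, 5.24 and 2.70 CPM in Ddx54KD, with 4.50, 6.16 and 3.05 CPM in EGFPKD (-0.61 ± 0.15, adjusted p 0.0344). Cd37, a tetraspanin, had 2.79, 5.30 and 2.19 CPM in Ddx24KD and 3.77, 8.24 and 3.39 CPM in Ddx54KD, with 4.13, 8.03 and 3.02 CPM in EGFPKD (-0.58 ± 0.13, adjusted p 0.0208). Ly6a and Cd37 had few reads and overlapped between groups. Of the 6 fits that leave out 1 library, Ly6a stayed called in 0 and Cd37 in 2. The calls of Ly6a, Cd37 and Tspan17, a second tetraspanin, were lost with DESeq2 (adjusted p 0.0797, 0.0512 and 0.0527). Tspan17 (-0.51 ± 0.12, adjusted p 0.0302), Calml4, a calmodulin-like protein (-0.48 ± 0.10, adjusted p 0.0179), and Tspo, a mitochondrial outer membrane protein (-0.49 ± 0.11, adjusted p 0.0204), were also called lower.

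Parent-of-origin and germline genes added a few. Of 27 imprinted genes 2 rose, where 0.942% of all genes tested did. Grb10, an adaptor that dampens insulin signalling, had 79.7, 72.9 and 56.5 CPM in Ddx24KD, against 57.6, 56.9 and 44.6 CPM in Ddx54KD and 77.8, 92.8 and 62.7 CPM in EGFPKD (log2 ratio 0.39 ± 0.06, adjusted p 0.00203), so that it was lowest in Ddx54KD in each pair. Magel2, expressed from the paternal allele in brain, had 3.23, 2.09 and 3.27 CPM in Ddx24KD and 1.76, 1.48 and 1.39 CPM in Ddx54KD, with 1.06, 0.523 and 1.32 CPM in EGFPKD (0.88 ± 0.20, adjusted p 0.0238). Of 21 germline genes silenced by methylation 8 were lower in all 3 pairs and 2 fell, both of the X-linked Rhox homeobox cluster. Among all genes tested 16.5% were lower in all 3 pairs and 0.802% fell. Rhox5 had 74.8, 74.9 and 55.4 CPM in Ddx24KD and 87.3, 97.0 and 62.5 CPM in Ddx54KD, with 89.3, 93.9 and 65.4 CPM in EGFPKD (-0.26 ± 0.05, adjusted p 0.00591), and Rhox9 had 7.96, 12.05 and 7.50 CPM in Ddx24KD and 11.9, 14.3 and 13.2 CPM in Ddx54KD, with 10.3, 11.4 and 8.501 CPM in EGFPKD (-0.53 ± 0.12, adjusted p 0.0204). Both Rhox genes overlapped in range and were ordered the same way in each pair.

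**Figure D4:**
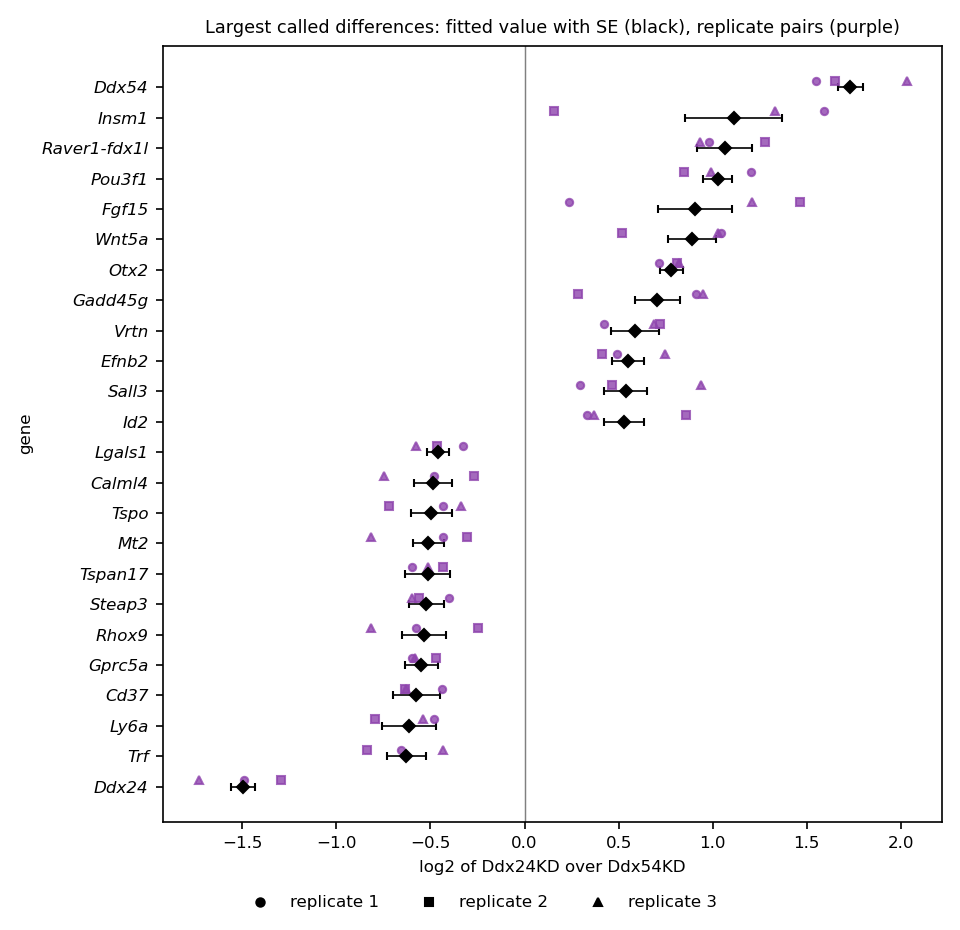
The 12 largest called differences in each direction among genes with at least 5 TPM, as the fitted log2 ratio of Ddx24KD to Ddx54KD with its SE (black) and the log2 ratio of each replicate pair (purple; marker shape gives the number). All pair ratios lie on the side of the fitted value; Insm1 spreads from 0.16 to 1.59, and Otx2 from 0.71 to 0.82.

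The called genes were next placed relative to the control. Of 135 genes higher in Ddx24KD, the mean of EGFPKD was below both knockdowns for 71, between them for 41 and above both for 23. Of 115 genes lower in Ddx24KD, EGFPKD was below both for 17, between them for 41 and above both for 57. Thus EGFPKD was below both for 52.6% of the higher genes and above both for 49.6% of the lower genes, where among all genes tested it was below both for 43.4% and above both for 41.5%. It lay between the knockdowns for 30.4% of higher and 35.7% of lower genes, and for 15.1% of all genes tested. Pou3f1 and Wnt5a were above the control in both knockdowns, farther in Ddx24KD, and Inhbb and Mt2 were below it in both, farther in Ddx24KD. The means of Ddx10KD and Ddx27KD were both nearer to Ddx24KD than to Ddx54KD for 91 of 135 higher and 71 of 115 lower genes. The share over all genes tested was not computed, so these counts do not set Ddx54KD apart from the other knockdowns. These counts are descriptions of genes chosen for the difference between Ddx24KD and Ddx54KD.

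Called genes also differed in transcript length. The median length was 4559 bases for the 135 higher genes, 2407 for the 115 lower genes and 2807 for all genes tested, and 74 of the 135 but 23 of the 115 fell in the longest 25% of genes. The longest 25% minus the shortest 25% gave median log2 levels, relative to the mean of all libraries, of 0.04, -0.02 and 0.08 in Ddx24KD, against -0.02, -0.10 and 0.06 in Ddx54KD and -0.07, -0.14 and -0.09 in EGFPKD. Within each replicate number Ddx24KD was above Ddx54KD, by less than the spread between numbers. With a trend on length taken out of each library, 238 genes were called, 122 higher and 116 lower, and 207 of them were among the 250. The formative list then had 9 members called higher and a median of 0.36, where the main fit gave 9 and 0.34. Whether length has a part in that difference was not tested. Among the described genes the calls of Mdn1, Jarid2, Oas1a and Ly6a were lost.

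**Figure D5:**
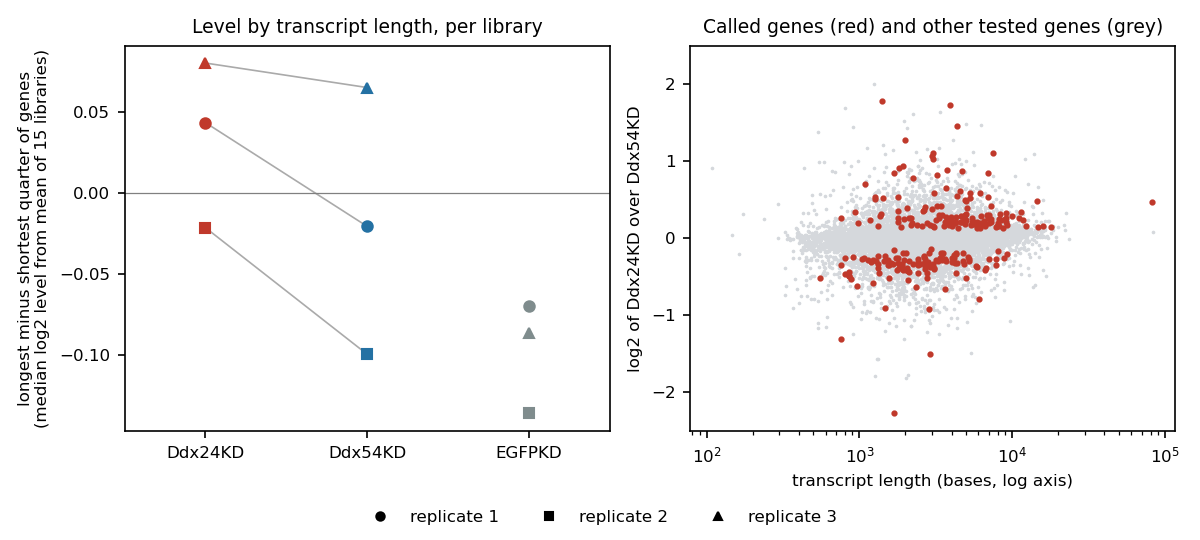
Left, median log2 level of the longest 25% of genes minus that of the shortest 25%, by library (grey lines join replicate numbers of Ddx24KD and Ddx54KD). Right, log2 ratio of Ddx24KD to Ddx54KD against transcript length on a log axis for each gene tested, called genes in red; 1 gene lies beyond the axis. Ddx24KD lies above Ddx54KD within each number, and red points above 0 crowd at greater lengths than those below 0.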

How the data were processed

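Poly(A) libraries were made with oligo-dT capture, per the labels' protocols, from cells on 0.2% gelatin treated for 16 h with 400 ng of interfering RNA and 4 µL of Lipofectamine. The authors deposited gene-level expected counts (estimated reads per gene, unscaled), TPM and transcript lengths from RSEM on mm10, per the file headers and the submitters' processing notes; those sources name no aligner, annotation release or strand setting. The authors' tables of comparisons with EGFPKD were not used.

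The 6 compared libraries held 26989655 to 27708782 expected counts. These were rounded to whole counts, and genes with low counts were removed with edgeR's filterByExpr (14335 of 23845 genes and 99.97% of counts kept). All 15 libraries were fitted in edgeR 4.0.16 (R 4.3.3) with TMM factors, group and replicate number, by quasi-likelihood F test, and Ddx24KD minus Ddx54KD was tested with Benjamini-Hochberg adjustment over all genes. CPM use TMM-scaled sizes; each SE is the log2 ratio divided by the square root of F. The scripts were tested on simulated counts. The replicate number was set as a block when the comparison was defined. Deviations of same-numbered libraries from their group means correlated in all 30 same-numbered pairs of libraries (0.106 to 0.335). For Ddx24KD with Ddx54KD this was 0.17 to 0.305, and -0.209 to 0.0369 between different numbers. Deviations within a group sum to 0, which pushes the values between different numbers down. These correlations come from the same data as the tests, and p-values measure the spread between these libraries.

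Described genes were the 4 targeted helicases, the 12 largest called differences each way with at least 5 TPM and the same direction in all 3 pairs, up to 4 called members of each gene list, and Pou5f1, Nanog, Sox2, Cdkn1a and Mdm2. The comparison, the lists and this rule were chosen with earlier results of these data known. List counts and medians are descriptions without a test. Alternatives were limma 3.58.1 (voom), DESeq2 1.42.0, other scalings and filters, fewer libraries, and, chosen after seeing the data, each replicate number left out of all groups and the removal of a length trend. Some called genes are not reported here.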

Additional observations from a re-analysis of the deposited data

How the results depend on the processing

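The count of 250 called genes (135 higher, 115 lower) rests on the replicate block: with no replicate block it was 8 (5 and 3), although 928 genes had an unadjusted p below 0.05 against 1962 with it, and all 250 kept their sign. Fitting the 6 libraries alone gave 63 (31 and 32). Leaving out 1 library gave 69 to 616 (39 to 346 and 30 to 270), and leaving out a replicate number in all groups, chosen after seeing the data, gave 11, 289 and 57 for numbers 1, 2 and 3 (9, 159 and 28 higher; 2, 130 and 29 lower). At an adjusted p below 0.01 the count was 71 (40 and 31), and with at least 2-fold it was 11 (8 and 3). Other scalings, DESeq2, voom, other filters and removal of the length trend gave 238 to 288. The causes of these changes in count were not tested. Fits with fewer libraries also had fewer residual degrees of freedom. No called value among the genes chosen by rule changed sign in any alternative. Kept signs, also those of the 250, are likely for genes that were called in the same libraries. Of the 53 genes chosen by rule, 5 stayed called without the block and 22 in the 6 libraries alone. With 3 libraries a group, a gene not called may still differ.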

Other observations

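Weakly expressed calls were left out of the account above by its limit of 5 TPM. Of the 11 called genes with at least a 2-fold difference, 6 were below that limit in both knockdowns: Nrcam, described above, and 5 more, named after their values were seen. Grm6, a glutamate receptor, had 1.82, 0.97 and 2.08 CPM in Ddx24KD, against 0.623, 0.47 and 0.656 CPM in Ddx54KD and 0.183, 0.187 and 0.0736 CPM in EGFPKD (edgeR adjusted p 0.0049). Gfra3 had 2.45, 1.04 and 4.19 CPM in Ddx24KD, against 0.623, 1.19 and 1.28 CPM in Ddx54KD and 0.256, 0.149 and 0.331 CPM in EGFPKD. Tspan8, a tetraspanin, was also higher in Ddx24KD, and Dpep3 and Ppp1r14d were lower, each with under 2 CPM in every library of the 3 groups and an edgeR adjusted p of 0.0439 to 0.0441. At this level a difference rests on few reads.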
